A study of Mus musculus with 2 samples.

Results

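Antiviral interferon-stimulated genes were examined in memory T helper 2 (Th2) cells that were sorted into interleukin-5-producing (IL-5+) and non-producing (IL-5-) fractions. The set holds 44 genes picked by name: antiviral effectors, enzymes of ISG15, ubiquitin and ADP-ribose transfer, sensors of viral nucleic acid, signal transducers and interferon receptors. The genes and their roles were picked with earlier results of these data known. A probe set was counted for a gene only where the platform annotation gave it that single symbol. This found 73 probe sets for 41 of the 44 genes, among 18193 named genes on the array. Isg15, Oas1g and Ifi44 had no such probe set and were not analysed here.

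Both groups had the same history up to the sort. CD4 T cells of BALB/c background with the transgenic DO11.10 T cell receptor, which recognises an ovalbumin (OVA) peptide, were stimulated with that peptide for 6 days with 25 U/ml IL-2 and 100 U/ml IL-4. They were then moved into BALB/c nu/nu mice, which lack a thymus and so have few T cells of their own but keep B cells, NK cells and myeloid cells. Memory cells were taken from the recipients' spleens 30 days later and sorted, and 1 Affymetrix array was hybridised per fraction. The labels give a purity of over 98% for both fractions. The labels do not say how many recipients were used, whether their cells were pooled, or how IL-5 production was elicited and detected for the sort. With 1 array per group, no difference can be checked against replicates and no p-value is given, so every ratio compares the 2 RNA samples and not the conditions.

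Type I interferons signal through the receptor chains IFNAR1 and IFNAR2, and interferon gamma through IFNGR1 and IFNGR2. Type I signalling brings STAT2 and IRF9 to the interferon-stimulated response element in target promoters, and IRF7 strengthens later rounds of interferon production. The induced proteins block viral entry, translation and replication, and some of them, such as the sensors RIG-I (Ddx58), MDA5 (Ifih1) and LGP2 (Dhx58), detect viral RNA and feed back into the pathway. T cells respond to interferons as well as producing interferon gamma.

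The promoters of Ifit1 and Ifit3 held matches to the core of this element, and they are shown because Ifit3 had the lowest ratio of all members. The core was searched as TTTC, any 2 bases, TTTC on both strands, so that it also appears as GAAA, any 2 bases, GAAA, and overlapping matches were each counted. The sequences are RefSeq promoters of build GRCm38.p6, here the 250 bases before the annotated start, with each core in capitals.
Ifit1, chr19:34640639-34640888, plus strand: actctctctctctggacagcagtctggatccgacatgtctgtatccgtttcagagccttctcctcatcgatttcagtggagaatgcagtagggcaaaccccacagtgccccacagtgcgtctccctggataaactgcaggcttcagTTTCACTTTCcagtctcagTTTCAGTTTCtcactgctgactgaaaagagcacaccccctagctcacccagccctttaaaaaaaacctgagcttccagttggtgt
Ifit3, chr19:34583279-34583528, plus strand: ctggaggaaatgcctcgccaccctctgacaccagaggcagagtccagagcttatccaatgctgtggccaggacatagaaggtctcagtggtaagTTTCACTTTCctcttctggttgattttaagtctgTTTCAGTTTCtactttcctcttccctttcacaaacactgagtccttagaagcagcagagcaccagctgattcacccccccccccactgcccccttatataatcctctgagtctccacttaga
In both promoters the pair of cores lies upstream of the start, and each has 1 core spelled TTTCACTTTC and 1 spelled TTTCAGTTTC. Ifit2, from the same gene cluster, had no match in the windows of its annotated starts.

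Shorter stretches show the core in 9 other members that have array values, printed to let the spacing and spelling be compared. The matches of Ddx58, Ifih1 and Eif2ak2 lie just after the annotated start, the others printed here before it.
Rsad2, chr12:26456543-26456592, minus strand: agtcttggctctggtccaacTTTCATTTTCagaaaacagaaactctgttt
Oas1a, chr5:120907520-120907555, minus strand: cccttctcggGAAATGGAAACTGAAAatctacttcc
Oas3, chr5:120777705-120777754, minus strand: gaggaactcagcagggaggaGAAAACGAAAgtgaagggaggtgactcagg
Bst2, chr8:71537567-71537622, minus strand: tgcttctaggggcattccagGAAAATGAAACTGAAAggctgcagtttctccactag
Stat2, chr10:128270256-128270305, plus strand: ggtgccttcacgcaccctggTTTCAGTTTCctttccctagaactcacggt
Trim30a, chr7:104465200-104465249, minus strand: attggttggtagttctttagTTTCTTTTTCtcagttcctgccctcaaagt
Ddx58, chr4:40239804-40239833, minus strand: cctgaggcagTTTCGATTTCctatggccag
Ifih1, chr2:62646206-62646233, minus strand: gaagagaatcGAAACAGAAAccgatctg
Eif2ak2, chr17:78882535-78882564, minus strand: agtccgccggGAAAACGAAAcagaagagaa
Oas1a and Bst2 each hold a pair of overlapping cores in the GAAA form. The 36 bases printed for Oas1a are also found in the promoter of its near-identical neighbour Oas1g. Whether the Oas1a probe set receives signal from both genes was not tested.

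Of the 44 genes, 33 had promoters in the RefSeq table, each window running from 250 bases before to 50 bases after an annotated start. Mx1, Mx2, Oas2, Tor3a, Rtp4, Ifi27l2a, Usp18, Parp9, Parp14, Dhx58 and Zbp1 were not matched. A core was present for 13 of the 33 genes (39.4%), against 1079 of 27025 genes (3.99%) in the whole table. The 13 genes held 21 matches, of which 17 lay before the start, as do 250 of the 300 bases of each window. None of the 4 receptor genes held the core, whereas 8 of 19 effectors did. With AG required before the first TTTC, the share was 21.2% of the members and 0.303% of all genes. The members were chosen by name as interferon-induced, so these shares describe them and were not tested. A match is not evidence that the site was bound, and its absence from these windows says nothing about sites elsewhere.

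**Figure D1:**
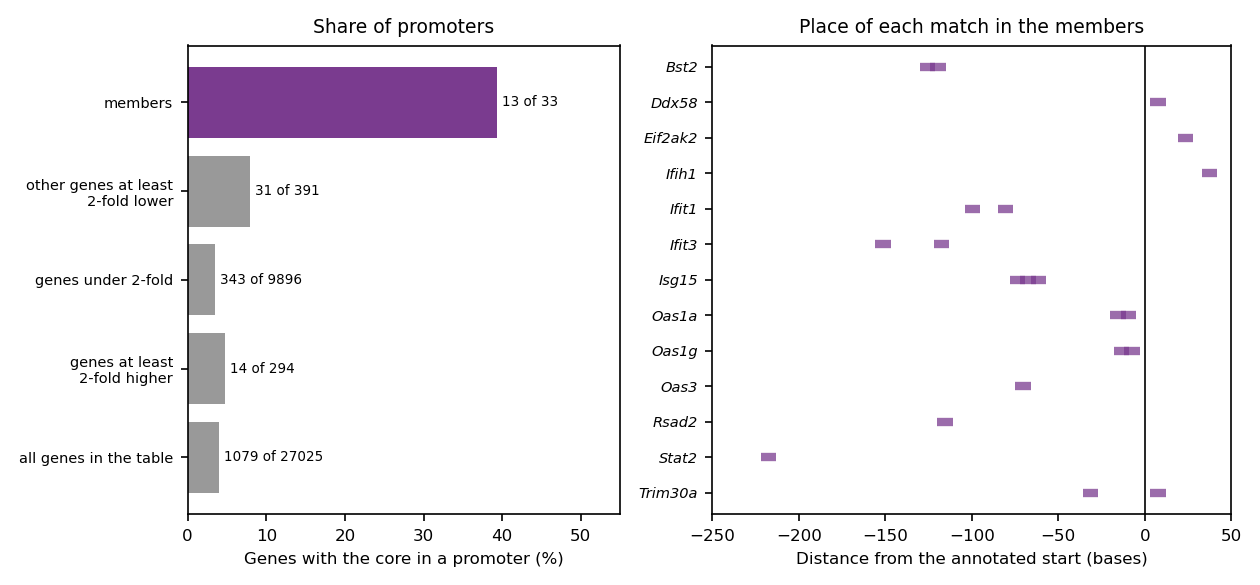
The left panel plots the percentage of genes with a core in a promoter window, with the number of genes beside each bar, and the right panel the place of each core in bases from the annotated start (vertical line). The members stand at 39.4% and all genes at 3.99%. Most matches lie before the start, as do most of the bases searched. The bars for genes under 2-fold and for all genes include members, and the bar for genes at least 2-fold higher includes none. The 2 Trim30a marks belong to separate annotated starts.

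On the arrays, the members were lower in IL-5+ cells almost throughout. Each gene was read from the probe set whose log2 signals had the highest mean over both arrays, signals at or under 36.3 were raised to that value (the floor, which is the 40th percentile over both arrays), and the log2 ratio was taken as IL-5+ over IL-5-. A gene was called lower or higher at a 2-fold difference. Of 41 genes with a probe set, 40 had a ratio, 39 of them below 0. In all, 19 of the 40 were at least 2-fold lower and 0 were at least 2-fold higher. Across all 13133 genes above the floor on 1 or both arrays, 4.01% were at least 2-fold lower, 2.85% at least 2-fold higher and 55.5% below 0. The members' median log2 ratio was -0.94, and that of all measured genes -0.05. Because the members were picked with earlier results of these data known, these contrasts with all genes describe them and were not tested. In bulk RNA, fewer cells of a responding kind and less RNA per cell cannot be told apart.

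The only error these arrays give is the disagreement between probe sets of one gene. Its SD on the log2 scale was 0.55 at mean signals from 36.3 to 112.8, 0.37 from 112.8 to 500, 0.21 from 500 to 2000 and 0.13 above. Variation between preparations of cells is not part of it. Probe sets of a gene in different signal ranges, or under the floor on 1 array, were not compared for it. The ratios of 36 members lay below 0 by more than the SD for their signal, as did 25.2% of all measured genes. The exceptions were Tor3a, Herc6, Ddx58 and Oasl1. Among members whose brighter signal was 500 or more, 15 of 28 were at least 2-fold lower, against 2.46% of all genes selected in this way. Of these 15 members, 10 reached 500 in IL-5- cells alone. Where both signals were required to reach 500, a choice made after seeing the data, 5 of 17 members were at least 2-fold lower, against 1.3% of all such genes. All 17 had ratios below 0, with a median of -0.64, and the median of the 5519 genes was -0.02.

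**Figure D2:**
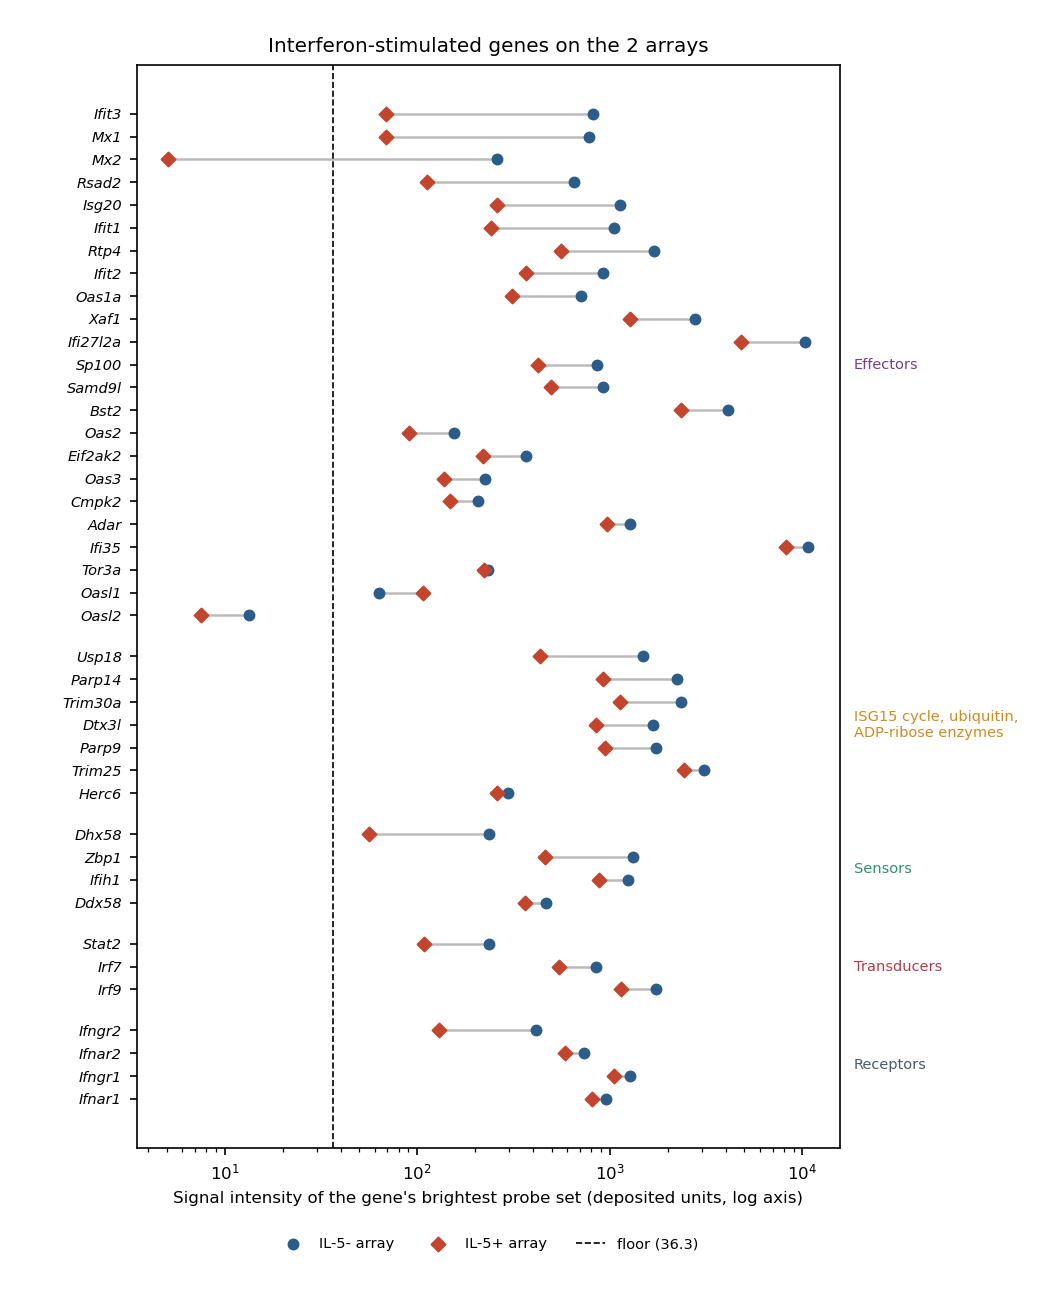
Each row is 1 member, with its signal intensity on the IL-5- array (circle) and the IL-5+ array (diamond) on a log axis, grouped by role. The IL-5+ value lies to the left in every row except that of Oasl1, and Mx2 and Oasl2 have IL-5+ signals under the floor of 36.3 (dashed line).

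The effectors, a mixed group of interferon-induced genes, held the largest differences among the members. Of 22 measured effectors, 12 were at least 2-fold lower, with a median log2 ratio of -1.07 and a range from -3.57 to 0.76. The IFIT proteins bind foreign RNA and hinder its translation. Ifit3 had signals of 68.8 in IL-5+ and 814 in IL-5- cells, 11.8-fold lower, and its near-identical copy Ifit3b may add to them, which was not tested. Ifit1 stood at 243 and 1046 (log2 ratio -2.11), and Ifit2 at 368 and 920 (-1.32). All 3 genes were thus low on the IL-5+ array, by unequal amounts although they are close neighbours on chromosome 19.

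The Mx genes encode dynamin-like GTPases that trap viral components. Mx1 had signals of 68.8 and 783 on the IL-5+ and IL-5- arrays, 11.4-fold lower. Mx2 exceeded the floor in IL-5- cells alone, at 260, and its IL-5+ signal of 5.1 makes it at least 7.15-fold lower. BALB/c mice are known to carry an Mx1 allele that gives no functional protein. The signals of Mx1 and Mx2 are of RNA and say nothing of protein activity.

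Rsad2 encodes viperin, which makes a chain-terminating nucleotide from CTP, and its neighbour Cmpk2 encodes a nucleotide kinase. Rsad2 had signals of 113 and 655, 5.81-fold lower, and its 3 probe sets ranged from -2.54 to -1.56. Cmpk2 stood at 148 and 206 (-0.48), and at -1.24 in its other, dimmer probe set, so it did not reach 2-fold at the probe set used. Isg20, an RNA exonuclease, had signals of 261 and 1129, 4.33-fold lower.

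The oligoadenylate synthetase family, whose product activates the nuclease RNase L, held members on both sides of 0. Oas1a had signals of 312 and 710 (-1.19). Oas2 stood at 90.5 and 155 (-0.78) and Oas3 at 138 and 224 (-0.70), both lower by less than 2-fold. Oasl1, which lacks synthetase activity and restrains translation of IRF7, was the only member above 0, with signals of 107 in IL-5+ and 63.1 in IL-5- cells (0.76). Both Oasl1 signals were under 112.8, where the SD between probe sets is 0.55. Oasl2 was under the floor on both arrays, at 7.5 and 13.4, and has no ratio.

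Among the other effectors, Rtp4 (558 against 1701, -1.61), Xaf1 (1269 against 2767, -1.13) and Ifi27l2a (4774 against 10359, -1.12) were at least 2-fold lower. Xaf1 encodes an antagonist of apoptosis inhibitors. Bst2 encodes tetherin, which holds budding virions at the cell surface, and had signals of 2344 and 4113 (-0.81). Sp100, a nuclear body protein, lay just inside the 2-fold threshold at 424 and 857 (2.02-fold). Samd9l, a translation inhibitor, lay just outside it at 495 and 921 (1.86-fold). Eif2ak2, the RNA-dependent kinase PKR, stood at 221 and 369 (-0.74), and Adar, the RNA-editing deaminase, at 973 and 1266 (-0.38). The smallest differences were those of Ifi35 (8235 and 10704, -0.38) and Tor3a (223 and 232, -0.06). The effectors therefore ran from 11.8-fold lower (Ifit3) to 1.70-fold higher (Oasl1).

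**Figure D3:**
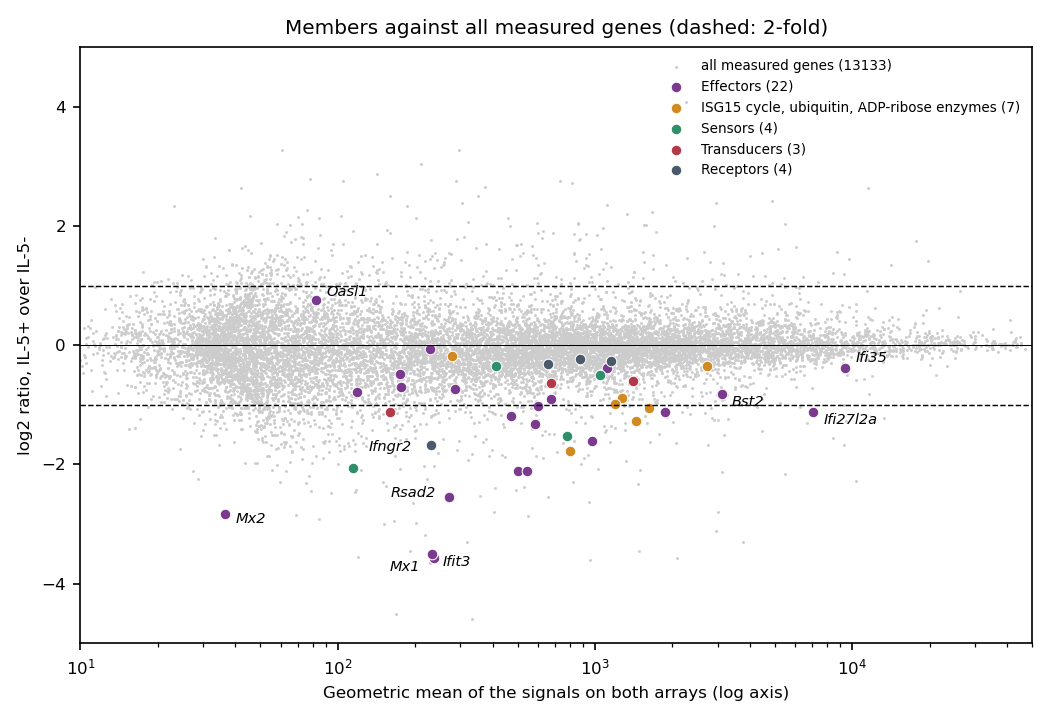
The log2 ratio of IL-5+ over IL-5- is plotted against the geometric mean of the signals (log axis) for all 13133 measured genes in grey and for the 40 members in colour by role, with the 2-fold limits dashed. The members lie below 0 across the range of signals, with the exception of Oasl1, and 31 genes fall outside the axes.

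ISG15 is a ubiquitin-like protein that is attached to other proteins and removed again by USP18, which also dampens signalling at IFNAR2. Usp18 had signals of 434 and 1486, 3.42-fold lower in IL-5+ cells. Of the 7 measured genes of ISG15, ubiquitin and ADP-ribose transfer, 3 were at least 2-fold lower and the median was -0.98. Herc6, the mouse ISG15 ligase, stood at 260 and 297 (-0.19) at the probe set used, but its 4 probe sets ran from -1.42 to 0.14. Trim25, a ubiquitin ligase for RIG-I, had signals of 2422 and 3088 (-0.35), and Trim30a 1129 and 2345 (2.08-fold lower).

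Parp14, Dtx3l and Parp9 are consecutive genes on chromosome 16, and PARP9 and DTX3L act together as an ADP-ribosyl and ubiquitin transferase. Parp14 had signals of 927 and 2234 (-1.27), Dtx3l 852 and 1684 (-0.98) and Parp9 940 and 1739 (-0.89). The 3 neighbours had similar ratios, although the 2-fold threshold fell between them, with Dtx3l at 1.98-fold and Parp9 at 1.85-fold just outside it.

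The sensors were split. Zbp1, which binds Z-form nucleic acid and can start necroptosis, had signals of 459 and 1320, 2.88-fold lower, and its other probe set gave -1.90. Dhx58 stood at 56.4 and 235 (-2.06) at the probe set used, but its other probe sets, at -0.07 and -0.21, were near the floor on both arrays. Ifih1 had signals of 877 and 1244 (-0.50) and Ddx58 365 and 465 (-0.35), so that neither RNA sensor reached 2-fold. When every probe set of a gene entered through their median, the sensors' median moved from -1.01 to -0.50, and Dhx58 to -0.21.

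The transducers differed less than the strongest effectors. Stat2 had signals of 109 and 235 (-1.12) at the probe set used and -2.06 at the dimmer one, where the IL-5+ signal of 32.8 lay under the floor. Irf7 stood at 543 and 845 (-0.64) and Irf9 at 1142 and 1731 (-0.60). All 3 were lower on the IL-5+ array, with a median of -0.64, and their range overlapped those of effectors and sensors. The differences between the roles were not tested.

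Among the receptors, 1 chain stood apart in value from the other three. Ifngr2, the signalling chain of the interferon gamma receptor, had signals of 130 and 413 on the IL-5+ and IL-5- arrays, 3.19-fold lower, and its other probe set gave -1.45. Ifngr1, the chain that binds the ligand, stood at 1054 and 1268 (-0.27). The type I receptor genes Ifnar1 (811 and 952, -0.23) and Ifnar2 (588 and 734, -0.32) were also close to equal. Ifnar2, Il10rb, Ifnar1 and Ifngr2 are consecutive genes on chromosome 16, and Il10rb had a log2 ratio of -0.02. Within this cluster the 2-fold difference was therefore present at Ifngr2 and at none of the other three.

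Different probe sets of a gene mostly gave the same direction. Of 72 member probe sets above the floor on 1 or both arrays, 69 were below 0. Counted by gene, 55.5% of all measured genes were below 0. Of the 72, 32 were at least 2-fold lower, against 3.89% of all named probe sets. Of 21 members with more than 1 probe set above the floor, 19 had a single sign. Herc6 and Tor3a were the exceptions. The ratios spanned more than 1 on the log2 scale in Herc6 and Dhx58. Of 10 lower members with more than 1 measured probe set, 7 were at least 2-fold lower at every one of them. Agreement between probe sets was not counted over all genes, so these counts only describe the members.

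**Figure D4:**
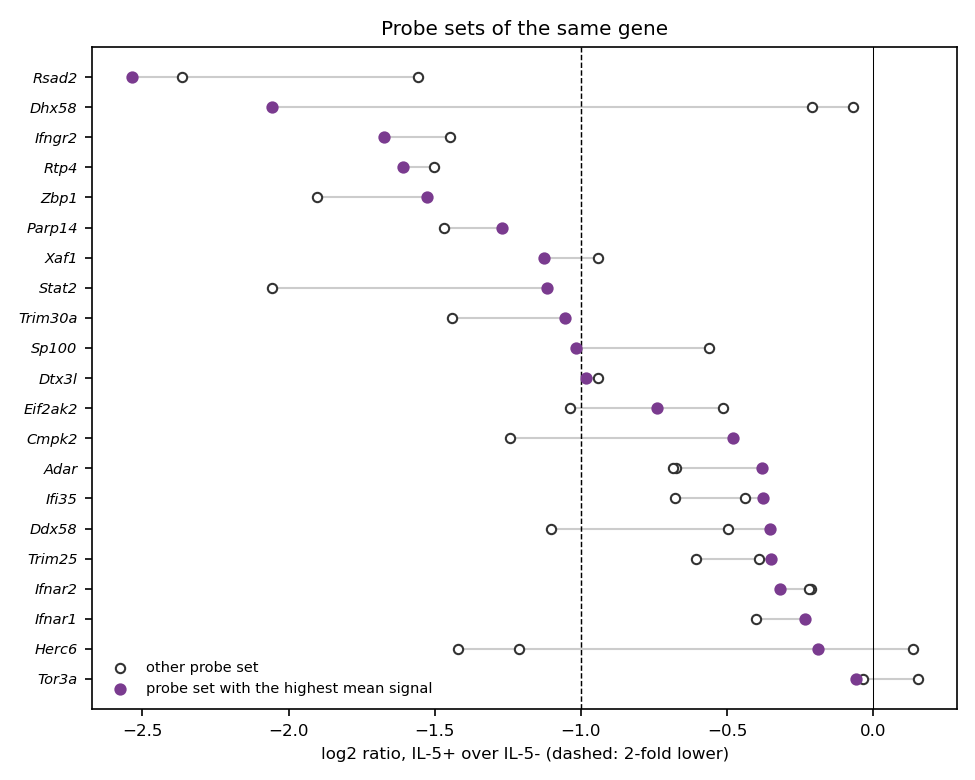
Every probe set above the floor on 1 or both arrays is plotted by its log2 ratio, IL-5+ over IL-5-, for the 21 members with more than 1. Filled points mark the probe set used for the gene, and all points lie below 0 except 1 of Herc6 and 1 of Tor3a that lie above it by up to 0.15.

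Of the 19 lower members, 5 had IL-5+ signals under 112.8, the 60th percentile of all signals, namely Ifit3, Mx1, Mx2, Dhx58 and Stat2. Raising the floor to that level left these 5 at least 2-fold lower but reduced the ratio of Ifit3 to -2.85, of Mx1 to -2.79, of Mx2 to -1.20 and of Dhx58 to -1.06. Of the 19 lower members, 15 stayed at least 2-fold lower under each of 9 other settings that gave them a value. The others were Sp100, Trim30a, Stat2 and Dhx58.

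**Figure D5:**
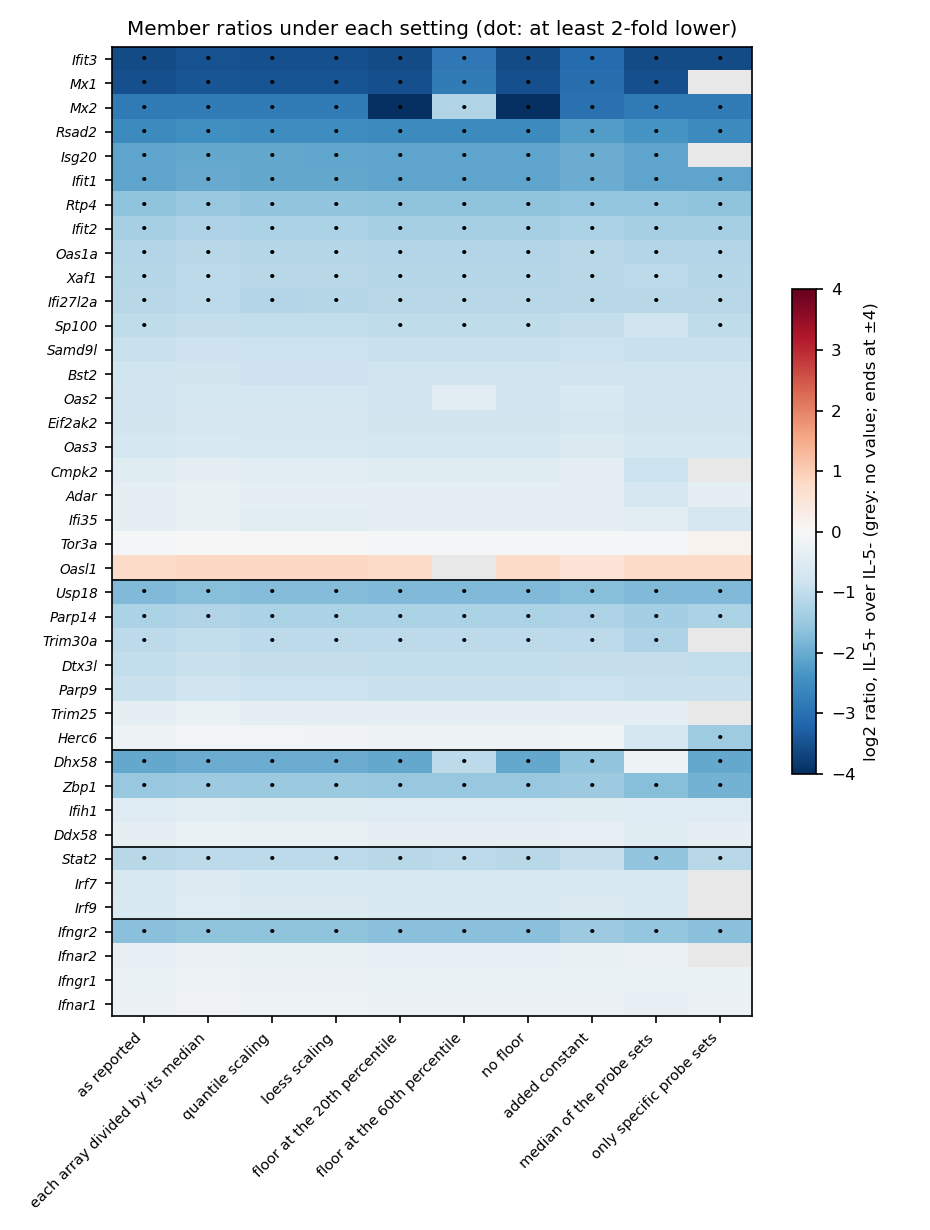
Colours give the log2 ratio of each of the 40 members (rows, by role) under the reported setting and 9 alternatives (columns), with a dot where the gene was at least 2-fold lower and grey where it had no value. The dots run across nearly all columns for 15 genes, and 2 values of Mx2 lie beyond the colour scale's end of 4.

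Genes around the members in the interferon pathway were read from further lists. Among 14 measured signal transduction genes, 4 (28.6%) were at least 2-fold lower and 0 higher, with a median of -0.15, where 4.01% of all measured genes were lower. The 4 were Socs3 (496 against 1772, -1.84), a feedback inhibitor of JAK signalling, and the interferon regulatory factors Irf1 (2130 against 5050, -1.25), Irf2 (-1.09) and Irf8 (1958 against 4079, -1.06). The kinase gene Jak2 stood at 9717 and 8093 (0.26), and the phosphatase gene Ptpn2 at -0.16.

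Of 10 measured genes of nucleic acid sensing and its adaptors, 1 (10%) was at least 2-fold lower, and the median was -0.33. Samhd1, which depletes the nucleotides that viruses need, had signals of 1140 and 7880, 6.91-fold lower, and its 5 probe sets ran from -2.89 to -1.97. Tbk1, the kinase that activates IRF3, stood at 3830 and 3119 (0.30).

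The interferon genes gave little signal apart from Ifng, which stood at 17909 and 22634 (-0.34). Of 10 ligand genes with a probe set, 6 were under the floor on both arrays, and Ifnb1 had signals of 32.6 and 38.0. Ifnz stood at 198 and 169. Ifna1 exceeded the floor in IL-5+ cells alone, at 85.0 against 3.6, at least 2.34-fold higher. The interferon alpha genes are near-identical copies, and the Ifna1 probe set may match several of them.

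Not all interferon-induced genes ran with the members. Of 32 further interferon-induced genes with a ratio, 7 (21.9%) were at least 2-fold lower and 3 at least 2-fold higher, with a median of -0.60. The lower ones included Phf11d (117 against 476, -2.03), Pml (314 against 1037, -1.73), Ube2l6 (58.9 against 174, -1.56), which encodes the conjugating enzyme for ISG15, Rnf213 (-1.31), Mov10 (-1.06), Ddx60 (88.6 against 178) and Ifi44l, at least 5.42-fold lower. The restriction factor genes Ifitm2 (6766 against 1294, 2.39) and Ifitm3 (11113 against 2709, 2.04), which block viral entry at endosomes, were higher in IL-5+ cells. Mlkl, the effector of necroptosis, was also higher (1015 against 319, 1.67), and Nmi stood at -0.42. Uba7, the activating enzyme for ISG15, is named after its values were seen: its probe set used gave -0.28 and the others -1.70 and -2.21.

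The same core was counted in promoters of other genes. Among lower genes, members left out, 31 of 391 (7.93%) held it. The share was 343 of 9896 (3.47%) among genes under 2-fold, members included, and 14 of 294 (4.76%) among genes at least 2-fold higher. These shares were not tested. Within the members, 6 of 11 lower genes and 5 of 18 other genes with a promoter held it, and the median log2 ratio was -1.05 in 11 members with the core and -0.54 in 18 without. Both groups spanned wide ranges, from -3.57 to -0.35 and from -2.11 to 0.76. Members without a promoter entry are left out here, and most of them, such as Mx1 and Mx2, were at least 2-fold lower. The group without the core holds all 4 receptors.

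Markers of non-T cells mostly had low signals. The sorting marker Il5 had signals of 37085 and 67.4, the direction the labels give. T cell genes such as Cd3d (9116 and 13553) and Cd2 (8243 and 11005) were bright, and the list of 10 had a median of -0.23. Marker lists of cells that can respond to or make interferon had summed signals, on the IL-5+ and IL-5- arrays, of 311 and 1081 for 9 B cell genes, 883 and 1053 for 9 plasmacytoid dendritic cell genes and 761 and 1071 for 10 dendritic cell and MHC class II genes. They were 410 and 459 for 13 monocyte and macrophage genes, 389 and 449 for 7 NK cell genes and 160 and 209 for 7 neutrophil genes. Ighm alone made up most of the B cell sum on the IL-5- array. The median log2 ratio of the 6 B cell genes with a ratio was 0.03, with 3 below 0 and 3 above. Klk1 was the largest part of the plasmacytoid sums, and only 1 of its 4 probe sets was above the floor. Of these 55 markers, 20 were under the floor on both arrays, 17 above it on both, 11 above it in IL-5- cells alone and 7 in IL-5+ cells alone. Those under it on both included Cd79a, Cd79b, Cd14, C1qa, Itgam, Ncr1, S100a8 and Flt3. Those above it in IL-5- cells alone included Pax5 (6.4 and 70.2), Itgax (70.1 in IL-5- cells), Adgre1 (35.9 and 61.1) and Siglech (34.5 and 38.1). The 7 above it in IL-5+ cells alone were Cd22, Cr2, Fcer2a, Xcr1, Klre1, Fcer1g and Csf3r. Among them, Cr2 had signals of 45.5 and 22.8, Xcr1 of 41.1 and 8.0 and Fcer1g of 61.4 and 4.7. Zbtb46 was above the floor on both arrays, at 150 and 79.1. Ighm (64.4 and 813), Pacsin1 (97.0 and 286), H2-Aa (51.0 and 156) and Gzma (87.4 and 316) were the listed markers at least 2-fold lower. Of the markers, 0 were at least 2-fold higher. Across all measured genes, 4.01% were at least 2-fold lower and 2.85% at least 2-fold higher. Where the brighter signal was under 500, 5.35% of genes were at least 2-fold lower. Other Ighm probe sets above the floor gave ratios from -2.67 to 0.16. The part of other cells in the members' difference was not tested. Bst2 itself also marks plasmacytoid dendritic cells. The markers with the highest signals in their lists also included Klk1 (527 and 488), Prf1 (129 and 77.9), H2-Ab1 (157 and 250), Cd74 (140 and 164), Csf1r (106 and 125), Cd68 (109 and 75.8), Ms4a1 (60.7 and 62.1), Elane (62.2 and 48.1) and Ngp (33.7 and 45.5).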

How the data were processed

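Each array has 1 deposited intensity per probe set, linear and from 0.1 to 51950. The submitters' processing notes name GCOS, Affymetrix's analysis software. Which version, algorithm or scaling target was used is not given in the sources used here. No detection calls came with the values, so low signals cannot be told from background. The median signals were 57.2 (IL-5+) and 60.4 (IL-5-), and the means without the lowest and highest 2% were 496 and 497. Of 45037 probe sets, the platform annotation gave 34945 a single symbol, 932 several and 9160 no symbol, and only the first kind was used.

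The work then computed log2 ratios of the deposited intensities, with the floor, probe set choice and 2-fold rule of the report. These steps were run on simulated arrays with differences beyond 2-fold planted in brighter genes. Recovery of smaller differences, or of differences in dim genes, was not checked. With 1 array per group no test was made, and precision is limited by that number. Every member is named or counted. From each other list the genes at least 2-fold apart and the 2 with the highest signals are named. The members, roles and lists were chosen with earlier results of these data known. Alternatives were scaling by array median, by quantiles or by loess, a floor at the 20th or 60th percentile or no floor, a constant of 32 added to each signal, other probe set choices, thresholds of 1.5-fold and 3-fold, and a longer promoter motif. Gene order and promoters came from RefSeq tables of GRCm38.p6. Promoter orientation was checked on 1668 overlapping windows of opposite strands. Python 3.11.15, numpy 2.4.6, pandas 2.3.3 and statsmodels 0.14.6 were used.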

Additional observations from a re-analysis of the deposited data

How the results depend on the processing

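Of the members, 38 of the 39 with ratios below 0 stayed there in every setting that gave a value, the exception being Tor3a, and no 2-fold ratio changed sign. The count of members at least 2-fold lower ranged from 17 to 19 over the 9 alternatives at a 2-fold threshold, with 32 genes left in the one restricted to specific probe sets. It was 28 at 1.5-fold and 10 at 3-fold, and the count of higher members was 1 (Oasl1) at 1.5-fold. Sp100 came under 2-fold with all 3 other scalings, with the added constant and with the median of probe sets, Trim30a with division by the array median (-0.98), Stat2 with the added constant (-0.93) and Dhx58 with the median of probe sets. Restricting genes to probe sets without the suffixes for possible cross-matches brought Herc6 to -1.42 and the transducers' median to -1.12, from 1 gene, while the sensors' median was -0.50 with the median of probe sets. The share of member promoters with the longer motif was 21.2%.

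Counts over the whole array moved with the treatment of dim signals. They were 1572 lower and 1325 higher genes with a floor at the 20th percentile, 226 and 183 at the 60th, 2314 and 2058 with no floor, 1563 and 1036 at 1.5-fold and 143 and 91 at 3-fold, against 526 and 374. Division by the array median gave 443 lower and 435 higher. No paired analysis was possible because each group has 1 array.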
